A study of Homo sapiens with 12 samples.

Results

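Cells of the HK-2 line, immortalized epithelial cells of the human renal proximal tubule, were compared across 2 groups that differ in both treatment and time: 3 cultures given a low dose of Ota for 72 h, and 3 cultures given the vehicle for 24 h. These 6 arrays were chosen by their labels from a series of 12. The other 6, vehicle controls at 72 h and Ota cells at 24 h (3 each), are used as reference values. The wider study looked for expression signatures of toxicity across several compounds, doses and times. Plates were seeded on the day before exposure, all groups were near confluency when exposure began, and all grew in a defined medium whose additives included insulin, hydrocortisone and epidermal growth factor. Neither the dose's concentration nor the full name behind Ota appears in the labels; OTA is the usual abbreviation of the kidney-damaging mould toxin ochratoxin A. Replicates are called biological, without a statement of what they shared, so each p-value reflects sample-to-sample spread that may be technical. The question was which genes of late Ota cells stood at the level of early control cells and which did not. Because treatment and time differ together, neither can be told apart from the other in this comparison, and the 72 h controls are given beside it to show where untreated cells of the same age stood.

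As background, epithelial cells left on a plate after reaching confluency slow their division and draw down the medium, and shortage of amino acids or glucose activates the integrated stress response, in which the factor ATF4 switches on genes of amino acid uptake and synthesis. Misfolded protein in the endoplasmic reticulum (ER) activates the unfolded protein response, which raises chaperones through ATF6, XBP1 and the kinase that ATF4 shares with it. DNA replication genes are driven by E2F factors ahead of S phase, and mitotic genes by the MuvB complex and FOXM1 after it, so both sets mark dividing cells at different points of the cycle.

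Expression values were log2 values from Affymetrix arrays, normalized by the authors. A gene was tested where its probe set was above log2 4 on at least 3 of the 12 arrays, which left 10699 genes. Arrays within a group correlated across these genes at r = 0.986 to 0.994, and late Ota arrays correlated with early control arrays at 0.957 to 0.971. The log2 difference between 3' and 5' actin probe sets, a sign of RNA integrity, was 1.01 ± 0.21 (SD, n = 3) in early control cells and 1.28 ± 0.08 in late Ota cells, and its part in the results was not tested. In bulk RNA, fewer cells expressing a gene and less of its RNA per cell cannot be told apart. Of 38 proximal tubule genes listed, 11 passed the filter. Of the markers of other cell types, 0 of 9 leukocyte, 1 of 10 endothelial, 2 of 12 distal nephron, 3 of 8 podocyte and 4 of 10 fibroblast markers passed. The mean log2 value over the leukocyte markers was 2.39 to 2.41 on early control arrays and 2.39 to 2.40 on late Ota arrays, which is on the floor of these values.

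Late Ota cells differed from early control cells in 3955 of 10699 genes (37%) at an adjusted p below 0.05 in limma: 1989 were higher (18.6%) and 1966 lower (18.4%). A change of at least 2-fold was reached by 467 of the higher and 319 of the lower genes. Stated without a test, the 3 arrays of each group did not overlap for 49.8% of genes. A second test asked for likeness: a gene was taken to stand at the early control level where 2 one-sided tests placed its difference within 1.5-fold in either direction, at an adjusted p below 0.05. This held for 5218 genes (48.8%), of which 477 also differed by the first test. No gene at the early control level lay more than 0.43 from it on the log2 scale. For 2003 genes neither a difference nor likeness was shown. The median log2 difference over all genes was -0.01.

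**Figure D1:**
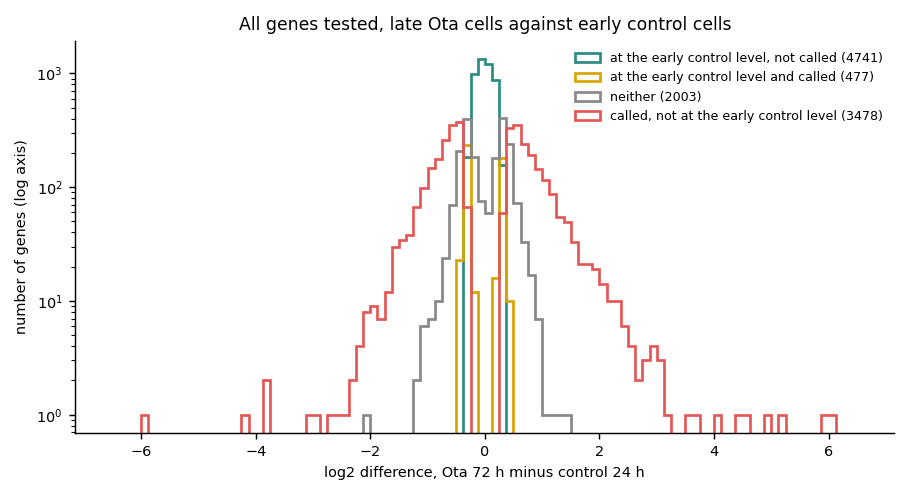
Histogram of the log2 difference between Ota 72 h and control 24 h for the 10699 genes tested (x axis), with the number of genes per bin on a log axis (y axis). Lines show 4741 genes at the early control level and not called, 477 at that level and called, 2003 that are neither, and 3478 called and not at that level, which make up both tails.

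The reference groups give the scale. Untreated cells at 72 h differed from the same 24 h controls in 4963 genes (46.4%; 22.7% higher and 23.6% lower), with 573 at least 2-fold higher and 608 at least 2-fold lower. Late Ota cells differed from 72 h controls in 3421 genes (32%; 17.1% higher and 14.9% lower). All these comparisons share arrays, so their values are set side by side below and no overlap between them was tested.

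Most tested genes of the integrated stress response rose in late Ota cells. Of 38 tested of 40 listed, 30 rose and 1 fell, with a median log2 difference of 0.92 against -0.01 over all genes. The background was 18.6% of genes higher and 18.4% lower. In untreated cells at 72 h, 36 of the 38 rose, with a median of 1.52, and against those cells 23 of the 38 were lower in late Ota cells and 2 higher (median -0.64). DDIT3 encodes CHOP, the stress factor that can lead to cell death. Its log2 values were 7.40, 7.21 and 7.31 in early control cells and 11.31, 12.14 and 12.32 in late Ota cells. The groups were far apart, with the first Ota array lowest of its group. The log2 difference was 4.61 (SE 0.21, adjusted p = 2.9e-07), a 24.5-fold rise, and untreated cells at 72 h averaged 12.55.

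INHBE, an inhibin subunit gene induced in stress, rose by 4.90 (SE 0.26), from a mean of 6.24 to 11.15, with 72 h controls at 11.83. ATF3, a stress factor of the same family as ATF4, read 3.61, 3.26 and 4.74 in early control cells, near the floor, and 8.23, 9.58 and 9.48 in late Ota cells. Its difference of 5.23 (SE 0.40, adjusted p = 6e-06) is limited in size by that floor and was 2.98 where the mean of its probe sets was used. CHAC1, which degrades glutathione, rose by 2.91 from a mean of 3.82, also near the floor. Ota cells at 24 h did not show these rises: DDIT3 averaged 6.89, INHBE 6.31 and CHAC1 3.51.

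The list also holds amino acid transporters and enzymes. SLC7A11, the cystine transporter, read 6.93, 6.42 and 7.02 in early control cells and 9.87, 10.76 and 10.52 in late Ota cells. It rose by 3.59 (SE 0.23), with a mean of 11.27 in 72 h controls. ASNS, asparagine synthetase, rose by 1.53 (SE 0.20, adjusted p = 0.00019), or by 0.76 as the mean of its probe sets, where late controls stood 2.67 above early ones. ALDH1L2, a mitochondrial folate enzyme, differed widely between the late groups: 4.69, 3.53 and 4.47 in early control cells, 4.99, 6.78 and 5.60 in late Ota cells, and a mean of 8.88 in late controls. Its rise in late Ota cells was 1.56 (SE 0.41, adjusted p = 0.011), or 0.52 as the mean of its probe sets, and it was lower than in 72 h controls by 3.09 on the log2 scale (log2 difference -3.09, adjusted p = 0.00023). Among the transfer RNA synthetases, EPRS1 stood at the early control level (0.18, 95% interval -0.03 to 0.40), though the mean of its probe sets gave 0.34 and passed the test of difference. NARS1 was at that level too although it rose slightly (0.28, adjusted p = 0.015), a call lost without the third late Ota array (0.26). WARS1, the tryptophan enzyme, was 0.55 above early control cells (adjusted p = 0.062) and not shown to be at their level. Late controls stood 2.31 above. WARS1 passed the test of difference in 3 alternative fits, among them that without the first late Ota array (0.76). Without the second it was at 0.27.

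The 1 member that fell was DDIT4, an inhibitor of the growth kinase mTORC1. Its values were 12.88, 12.99 and 12.58 in early control cells and 11.62, 11.78 and 11.74 in late Ota cells, with no overlap. The difference was -1.10 (SE 0.13, adjusted p = 7.9e-05). DDIT4 was low in Ota cells at 24 h too, with a mean of 11.20, while 72 h controls averaged 13.24. STC2, the secreted glycoprotein stanniocalcin 2, and GDF15, a stress cytokine, were the 2 members higher in late Ota cells than in late controls by the test: STC2 rose by 4.04 (SE 0.36) against 3.01 in controls, and GDF15 by 2.89 (SE 0.23) against 2.14. Between the late groups STC2 passed only just (adjusted p = 0.049 in limma). Its early control arrays, at 4.46, 3.50 and 4.45, were near the floor. Taking the mean of each gene's probe sets moved the rises of STC2 and GDF15 to 2.42 and 0.97.

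**Figure D2:**
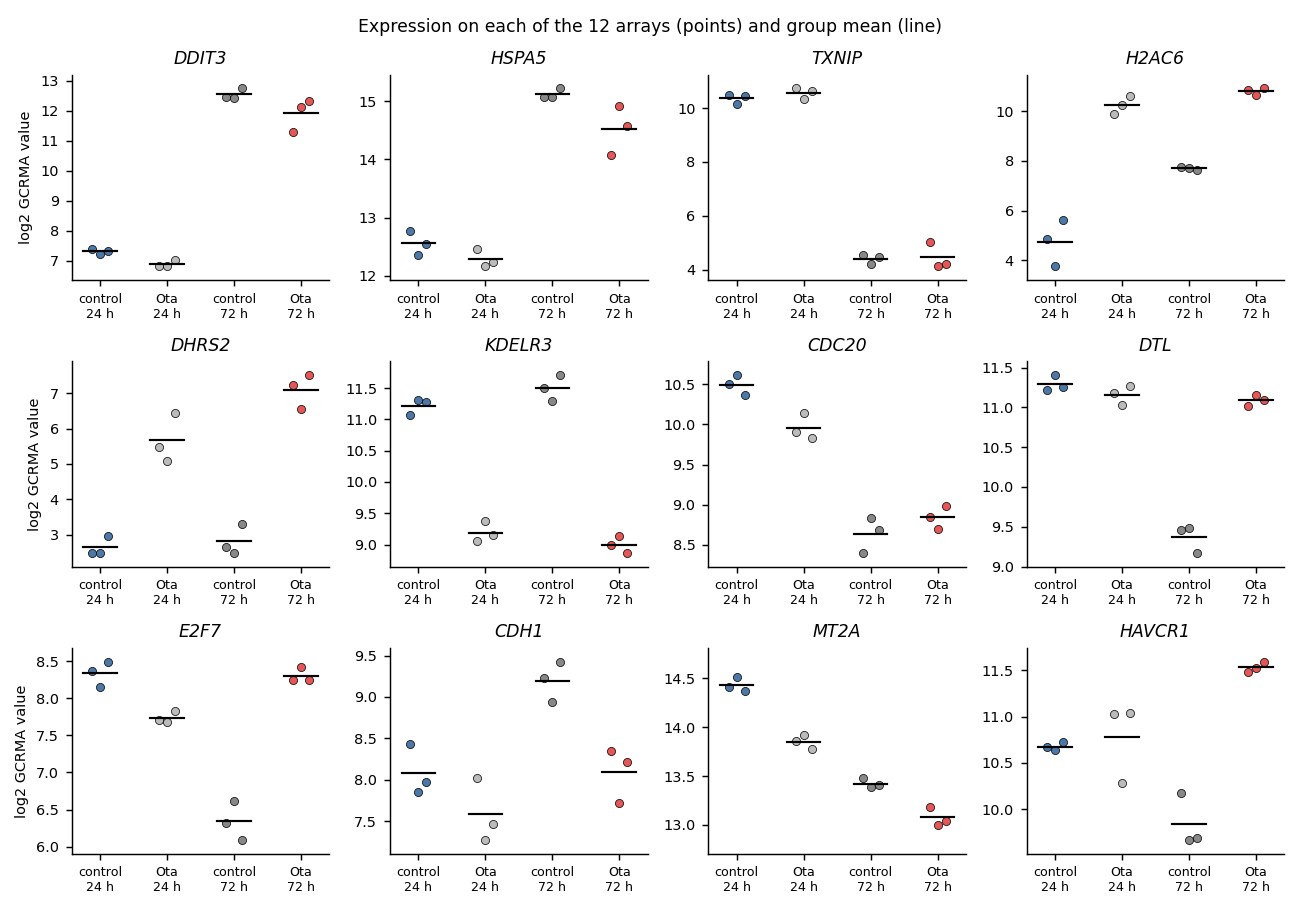
Log2 expression (y axis) of 12 genes on each of the 12 arrays, 3 per group, with the group mean as a line. DDIT3 and HSPA5 are high and TXNIP is low in both 72 h groups, H2AC6 and DHRS2 are high and KDELR3 is low in both Ota groups, and DTL, E2F7 and CDH1 differ between the 72 h groups while late Ota cells sit near the 24 h controls.

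The promoter of CHAC1 is shown for the composite element that C/EBP and ATF factors bind, TTGCATCA or its reverse complement TGATGCAA, in capitals. The window runs from 250 bases before to 50 after the gene start in RefSeq, assembly GRCh38.p14, at chr15:40953221-40953520 on the plus strand, and the match begins at position -209 from the start. On either strand, 4 of the 32 tested members with a promoter entry held this 8-base word (12.5%), against 0.923% of 27305 promoters; the match describes letters, not binding.
CHAC1: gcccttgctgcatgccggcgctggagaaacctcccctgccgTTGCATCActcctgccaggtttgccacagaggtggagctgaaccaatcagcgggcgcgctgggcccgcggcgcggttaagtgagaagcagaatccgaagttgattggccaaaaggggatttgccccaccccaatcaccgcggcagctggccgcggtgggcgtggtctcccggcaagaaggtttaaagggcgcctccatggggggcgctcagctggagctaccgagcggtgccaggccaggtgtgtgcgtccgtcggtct

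Many chaperones of the endoplasmic reticulum rose in late Ota cells. Of 31 tested of 32 listed, 18 were higher than in early control cells and 1 was lower, and the median log2 difference was 0.73. All genes together had 18.6% higher and 18.4% lower. Late controls had 29 of 31 higher with a median of 1.40, and late Ota cells were lower than late controls for 26 of 31 and higher for 0 (median -0.83). HSPA5, the master chaperone BiP, read 12.77, 12.35 and 12.55 in early control cells, 14.08, 14.91 and 14.57 in late Ota cells and 15.07, 15.06 and 15.22 in late controls. All late Ota arrays lay between the other groups. The rise was 1.96 (SE 0.19, adjusted p = 2.4e-05), a 3.89-fold change, and the gene's other probe set gave 6.28, so that the mean of its probe sets was 4.12.

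ERO1B, an oxidase of the ER lumen, rose by 2.83 (SE 0.33) to a mean of 7.32, and CRELD2, a secreted ER stress protein, by 1.51 (SE 0.25). ERN1, the sensor IRE1, rose by 3.65 (SE 0.25, adjusted p = 3.3e-06), or by 1.29 as the mean of its probe sets. None of its other sets passed the filter. HERPUD1, a part of the degradation machinery, rose by 2.48 (SE 0.17), or by 1.12 as the mean of its probe sets, and the co-chaperone DNAJB9 by 2.16 (SE 0.22). XBP1, the factor that IRE1 splices, rose by 1.31 (SE 0.14), a call lost where its probe sets were averaged (0.24). SDF2L1, a partner of BiP, rose by 2.85 (SE 0.31) from 6.17 to 9.02, with late controls at 10.61.

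HYOU1, a large chaperone, read 9.04, 8.73 and 8.62 in early control cells and 9.42, 10.36 and 9.70 in late Ota cells. It rose by 1.03 (SE 0.23, adjusted p = 0.0054) where late controls averaged 11.86, and the late groups differed by -2.04 (adjusted p = 9.9e-05). HSP90B1, the chaperone GRP94, read 11.63, 11.65 and 11.35 in early control cells and 11.60, 12.48 and 11.76 in late Ota cells. The groups overlapped, and its difference of 0.41 (95% interval -0.03 to 0.84) passed neither test, while late controls averaged 13.55. PDIA4, a disulphide isomerase, also passed neither (0.90, SE 0.36, adjusted p = 0.072), with late controls 2.62 above early ones, and passed without the first control array (1.23) or the first late Ota array (1.15). Calreticulin, CALR, was at the early control level (-0.03, 95% interval -0.25 to 0.20), as were P4HB and DERL1 among 8 members in all (25.8% of the list against 48.8% of all genes). Of these 8, DERL1 gave 0.66 with the probe sets prone to match other transcripts left out. ERO1A, the oxidase that recharges disulphide isomerase, was the 1 member that fell, by 0.57 on the log2 scale (adjusted p = 0.0034), and late controls stood 0.01 from early ones.

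In HSPA5, HERPUD1, DNAJB9, HYOU1 and HSP90B1 the first late Ota array was the lowest of its group and the second the highest. Without that first array the list's median was 0.89 and 17 to 19 members were called higher over the 6 fits that each left out 1 of the arrays compared.

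The promoters of HSPA5 and HSP90B1 are printed because both hold the same element, and BiP rose while GRP94 passed neither test. Capitals mark the ER stress element, which reads CCAAT, then any 9 bases, then CCACG, searched on both strands. HSPA5 lies at chr9:125241294-125241593 on the minus strand and has 1 match, and HSP90B1 lies at chr12:103930160-103930459 on the plus strand and has 2 (RefSeq, GRCh38.p14).
HSPA5: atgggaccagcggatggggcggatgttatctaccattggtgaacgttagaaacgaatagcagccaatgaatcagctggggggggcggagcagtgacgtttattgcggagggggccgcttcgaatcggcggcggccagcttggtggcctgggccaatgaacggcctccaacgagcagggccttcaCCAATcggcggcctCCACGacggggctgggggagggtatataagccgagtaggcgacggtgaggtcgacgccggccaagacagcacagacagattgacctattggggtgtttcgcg
HSP90B1: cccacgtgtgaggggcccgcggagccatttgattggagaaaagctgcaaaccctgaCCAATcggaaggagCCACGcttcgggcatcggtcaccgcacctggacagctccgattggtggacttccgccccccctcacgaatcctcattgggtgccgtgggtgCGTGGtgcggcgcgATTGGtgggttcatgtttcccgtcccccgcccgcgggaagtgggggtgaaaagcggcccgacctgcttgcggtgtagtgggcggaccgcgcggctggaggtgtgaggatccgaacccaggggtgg

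Of the 28 tested members with a promoter entry, 7 held this element (25%), against 0.0806% of 27305 promoters. The 7 were HSPA5, HSP90B1, CALR, CANX, CRELD2, ERO1B and XBP1. Among them, 5 were higher in late Ota cells and 2 stood at the early control level, where the 31 genes tested had 18 and 8. CANX, the membrane lectin calnexin, counts under both (0.33), CALR was at that level alone, and HSP90B1 under neither. The CANX call was lost in 6 of the alternative fits, and its value was 1.37 without probe sets prone to match other transcripts.

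Genes of secretory traffic carry proteins into and out of the ER. Of 34 tested of 36 listed, 22 were at the early control level (64.7%, against 48.8% of all genes). A further count gave 5 higher and 7 lower (18.6% and 18.4% over all genes), with a median difference of -0.03. In untreated cells at 72 h, 23 of the 34 were higher than at 24 h and 1 lower (median 0.42), and against them late Ota cells were lower for 26 and higher for 0 (median -0.52). SSR2, a subunit of the translocon-associated complex, read 11.21, 11.34 and 11.11 in early control cells, 11.08, 11.47 and 11.18 in late Ota cells and 12.26, 12.20 and 12.38 in late controls. The first and last of these groups did not overlap, while late Ota and early control arrays did, with a difference of 0.03 (95% interval -0.21 to 0.27). SEC61B, part of the translocation channel, was at the early control level (0.06, SE 0.08) with late controls 0.57 above, and COPA, a coat protein of retrograde vesicles, was so at -0.02 with late controls 0.55 above. SEC61A1, the channel itself, passed neither test (0.28, SE 0.16).

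KDELR3 departed from the rest of this list. It encodes a receptor that returns escaped chaperones to the ER. Its values were 11.07, 11.31 and 11.28 in early control cells, 8.99, 9.14 and 8.86 in late Ota cells, and 11.50, 11.29 and 11.71 in late controls. Ota cells at 24 h were already low, at 9.06, 9.37 and 9.15, so both Ota groups lay below every control array. The fall was 4.67-fold (log2 difference -2.22, SE 0.13, adjusted p = 1.5e-06), and its other probe sets gave -2.06 and -1.13. SAR1B, a small GTPase of vesicle budding, fell by 0.93 on the log2 scale (adjusted p = 0.0043), with 0.12 where its probe sets were averaged and 1.26 without those prone to match other transcripts. The counts in this list were small and moved with single arrays: 1 to 5 higher and 4 to 7 lower over the fits that each left out 1 array.

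**Figure D3:**
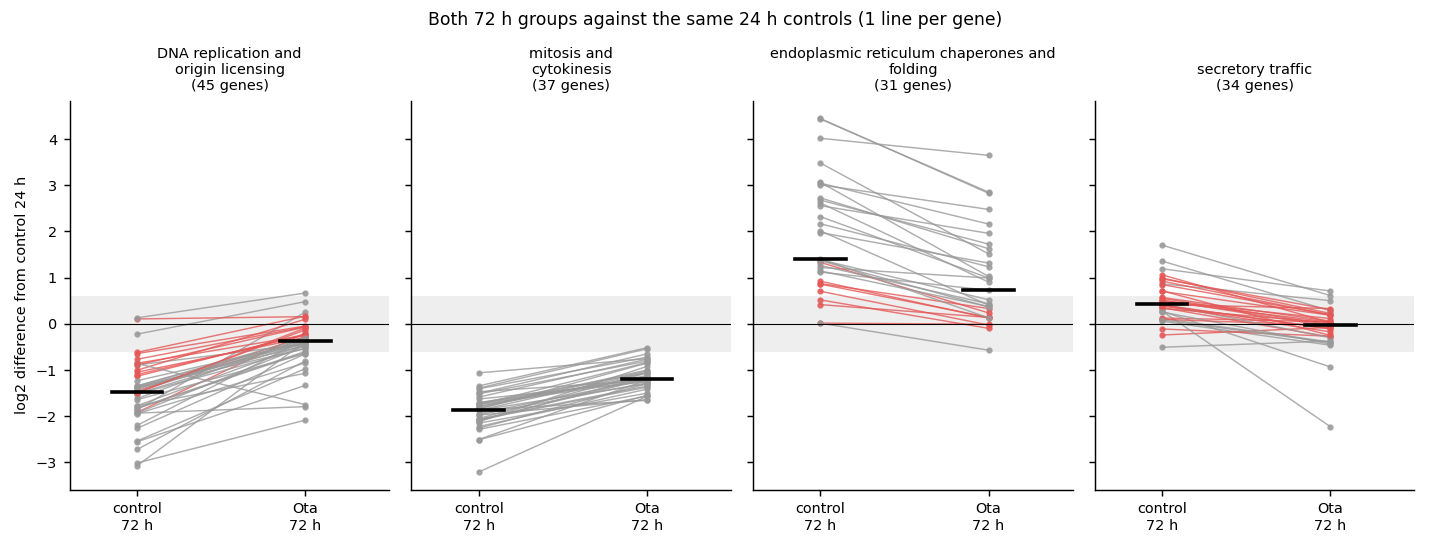
Log2 difference from the 24 h controls (y axis) for untreated and Ota cells at 72 h, 1 line per gene, in 4 gene lists, with list medians as black bars, a grey band for 1.5-fold and red lines for genes that stood at the early control level in late Ota cells. The medians went from -1.47 to -0.38 for DNA replication, -1.86 to -1.19 for mitosis, 1.40 to 0.73 for ER chaperones and 0.42 to -0.03 for secretory traffic.

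Of 45 DNA replication genes tested of 46 listed, 22 fell and 1 rose, 14 were at the early control level (31.1%) and the median difference was -0.38. Among all genes 18.4% fell, 18.6% rose and 48.8% were at that level, so the list's share at that level is below the background. In untreated cells at 72 h, 42 of the 45 fell, with a median of -1.47, and late Ota cells were above those controls for 39 and below for 1 (median 1.00). DTL, the substrate adaptor that marks the licensing factor CDT1 for destruction in S phase, read 11.21, 11.40 and 11.26 in early control cells, 11.01, 11.16 and 11.10 in late Ota cells and 9.46, 9.49 and 9.17 in late controls. Late Ota arrays lay just under the early control arrays, at the early control level by the test (-0.20, 95% interval -0.44 to 0.04), and 1.72 above late controls (adjusted p = 3e-06).

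The helicase subunits MCM2 and MCM3, the ribonucleotide reductase subunit RRM2, the primase subunits PRIM1 and PRIM2, the dUTPase DUT and the regulator E2F1 were among the 14 at the early control level. MCM2 (-0.30) was called lower in 3 of the alternative fits. E2F1 read 7.09, 7.23 and 6.61 in early control cells and 7.04, 7.16 and 7.03 in late Ota cells, a difference of 0.10 (95% interval -0.24 to 0.44), with late controls at 5.97. RRM2 gave -0.09 (SE 0.15), but -0.62 as the mean of its probe sets. MCM10, which loads polymerase alpha, and CCNE2, the S phase cyclin E2, passed neither test (-0.38 and 0.26), MCM10 being called lower without the second control array (-0.55). In late controls they stood at -3.07 and -1.86.

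Other members of the list fell. RFC4, a clamp loader subunit, read 11.33, 11.53 and 11.68 in early control cells and 9.77, 9.72 and 9.80 in late Ota cells, a fall of 1.75 on the log2 scale (SE 0.13, adjusted p = 5.1e-06). It was at 10.66 in late controls and lowest in Ota cells at 24 h, at 9.35, and was the 1 member below late controls. POLA2, of polymerase alpha, fell by 1.79 (SE 0.24), or by 0.76 as the mean of its probe sets, and Ota cells at 24 h averaged 4.66 against 7.66 in early control cells. TK1, thymidine kinase, fell by 1.33 (SE 0.12, adjusted p = 1.5e-05) against a fall of 2.55 in controls. GINS4, of the replicative helicase, fell by 2.08 (SE 0.48), and UHRF1, which guides maintenance of DNA methylation, by 0.80 (SE 0.10) against 2.72 in controls. The 1 member that rose was the clamp loader subunit RFC5 (0.67, adjusted p = 0.023), and its other probe sets fell by 0.74 and 0.61 (log2 differences -0.74 and -0.61). The RFC5 call was lost in 6 of the alternative fits, 4 of them without 1 array (0.46 to 0.65), and the mean of its probe sets was -0.23. Over fits without 1 array, 15 to 23 members were called lower.

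Mitotic genes were lower in late Ota cells. All 37 tested and listed fell, 26 of them at least 2-fold, and 0 stood at the early control level, with a median difference of -1.19. The background was 18.4% of genes lower. In untreated cells at 72 h all 37 had fallen too, with a median of -1.86, and late Ota cells were above those controls for 31 (median 0.74). CDC20, the activator of the anaphase-promoting complex, read 10.51, 10.61 and 10.37 in early control cells, 8.84, 8.70 and 8.98 in late Ota cells and 8.40, 8.83 and 8.68 in late controls. The late groups overlapped each other and lay well below early control cells. Its fall was 3.15-fold (log2 difference -1.66, SE 0.13, adjusted p = 7.8e-06).

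MKI67, the proliferation marker Ki-67, read 11.28, 11.48 and 10.99 in early control cells and 10.02, 9.36 and 9.69 in late Ota cells, a fall of 1.56 (SE 0.18, adjusted p = 8.7e-05), with late controls at 8.97. The mitotic kinase AURKA fell by 1.64 (SE 0.16) and the chromosomal passenger BIRC5, also called survivin, by 1.35 (SE 0.12). Without probe sets prone to match other transcripts these were -0.45 and -0.49 and no longer passed. The smallest falls were those of the checkpoint gene MAD2L1 (-0.52, adjusted p = 0.03) and of NUSAP1 (-0.54). MAD2L1 lost its call in 6 of the alternative fits.

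The promoters of DTL and CDC20 stand for these groups. In DTL, at chr1:212035498-212035797 on the plus strand, capitals mark an E2F site, searched as TTTCCCGC or TTTGGCGC, which begins at position -8 from the gene start. In CDC20, at chr1:43358731-43359030 on the plus strand, they mark the cell cycle homology region element TTTGAA, with 2 matches on either strand (RefSeq, GRCh38.p14).
DTL: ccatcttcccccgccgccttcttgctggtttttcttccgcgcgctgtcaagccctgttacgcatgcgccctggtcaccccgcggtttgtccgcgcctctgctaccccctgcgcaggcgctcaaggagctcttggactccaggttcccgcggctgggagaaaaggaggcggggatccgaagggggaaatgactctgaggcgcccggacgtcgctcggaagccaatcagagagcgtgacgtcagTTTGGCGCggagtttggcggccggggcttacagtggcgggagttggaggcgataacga
CDC20: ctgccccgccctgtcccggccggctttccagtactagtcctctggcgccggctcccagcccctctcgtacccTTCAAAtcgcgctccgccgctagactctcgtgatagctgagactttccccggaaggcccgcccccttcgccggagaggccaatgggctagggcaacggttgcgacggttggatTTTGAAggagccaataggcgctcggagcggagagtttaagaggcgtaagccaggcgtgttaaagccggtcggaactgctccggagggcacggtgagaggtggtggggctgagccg

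The E2F words were found on either strand in 19 of 39 tested replication genes with a promoter entry (48.7%) and in 2.31% of 27305 promoters. Of those 19, 11 were lower in late Ota cells and 5 stood at the early control level, where the 45 genes tested had 22 and 14. TTTGAA was found in 23 of 31 mitotic genes (74.2%) and in 15.4% of promoters. All 23 were lower, as were all 37 mitotic genes tested, so this count cannot set genes with the word apart. A 6-base word occurs often by its length alone, and no match says that a factor bound there.

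Outside the lists, genes at the early control level were ranked by how far untreated cells had moved. Those that fell most in controls were RIBC2, ZNF367, ELAVL2, DSCC1, E2F7 and BRI3BP. E2F7, an atypical E2F that represses E2F targets, read 8.37, 8.15 and 8.49 in early control cells, 8.25, 8.42 and 8.25 in late Ota cells and 6.31, 6.62 and 6.09 in late controls. Late Ota and early control arrays were interleaved (-0.03, 95% interval -0.32 to 0.26). DSCC1, of the clamp loader for chromatid cohesion, was -0.28 from early control cells with late controls at -2.04, and BRI3BP, a membrane protein, 0.08 with late controls at -1.98. ELAVL2, an RNA-binding protein best known from neurons, was at -0.11 (SE 0.18) against -2.10 in controls.

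Those that rose most in controls were SYTL1, ZNF70, NUCB2, CCPG1, PDGFRL and ZNF594. CCPG1, a receptor for autophagy of the ER, read 6.57, 6.57 and 6.58 in early control cells and 6.57, 6.75 and 6.60 in late Ota cells, a difference of 0.07 (95% interval -0.19 to 0.32), with 8.08, 8.16 and 8.45 in late controls. NUCB2, a calcium-binding protein of the secretory pathway, was -0.14 from early control cells with late controls 1.66 above, and gave 1.17 where its probe sets were averaged, since the other set rose by 2.48. SYTL1, PDGFRL and ZNF594 were under log2 4 in early control cells (means 2.65, 3.37 and 3.31) and in late Ota cells (2.70, 3.50 and 3.44). They passed the filter only through the late control arrays. Their likeness thus sets floor values against floor values and cannot show that a level was kept. Because these 12 genes were picked for a change in controls, their difference from late controls is a description.

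The largest log2 rise among the 10699 genes tested was that of a histone gene. H2AC6, a core histone H2A gene of the chromosome 6 cluster, read 4.84, 3.76 and 5.62 in early control cells and 10.85, 10.65 and 10.92 in late Ota cells. Ota cells at 24 h were already at 9.87, 10.26 and 10.61, and late controls lay between, at 7.76, 7.71 and 7.63. The log2 difference was 6.06 (SE 0.36, adjusted p = 1.5e-06), its size limited by the floor, since 1 early control array was under log2 4. The H2AC6 probe set is of the kind prone to match other transcripts, and no other set of the gene passed the filter. Of 13 histone genes tested of 23 listed, 8 rose and 3 fell (median 1.07), against 18.6% and 18.4% of all genes. A further 4 had a probe set that did not pass the filter, which favours genes that are high in some group. In untreated cells at 72 h, 2 of the 13 were higher and 8 lower (median -0.56).

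H2BC4, an H2B gene, read 3.31, 3.58 and 3.50 in early control cells, near the floor, and 6.47, 5.99 and 6.59 in late Ota cells, a rise of 2.89 (SE 0.30). H2BC12 rose by 2.15 (SE 0.17), from 9.62 to 11.77, H2BC6 by 1.52 (SE 0.15) and H2BC5 by 1.38 (SE 0.12). The linker histone H1-2 rose by 1.23 (SE 0.14), while it was down by 1.95 in late controls (log2 difference -1.95). The variants H2AJ, made outside S phase, and H2AX, which marks DNA breaks when phosphorylated, fell by 1.55 and 0.68, or by 0.76 and 0.29 as the mean of their probe sets. H2AZ1 was at the early control level (-0.13). Histone genes of 1 class are nearly identical in coding sequence, so probe sets can read more than 1 of them.

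H2AC6 and H2BC4 are neighbours read in opposite directions, and their promoter windows share 255 bases. The H2AC6 window is printed, at chr6:26123922-26124221 on the plus strand, with capitals for the octamer ATGCAAAT that the factor OCT1 binds in histone promoters. The match that begins at position -130 from the H2AC6 start is the same stretch as the one in the H2BC4 window (RefSeq, GRCh38.p14).
H2AC6: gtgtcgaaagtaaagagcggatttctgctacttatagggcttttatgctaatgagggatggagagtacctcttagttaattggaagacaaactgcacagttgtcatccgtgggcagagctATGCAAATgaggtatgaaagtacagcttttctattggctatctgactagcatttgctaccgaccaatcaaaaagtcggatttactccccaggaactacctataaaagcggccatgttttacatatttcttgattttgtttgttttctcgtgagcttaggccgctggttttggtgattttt

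The octamer, on either strand, was in 5 of 13 tested histone genes (38.5%) and in 1.8% of 27305 promoters. All 5, H2AC6, H2BC4, H2BC6, H2BC9 and H2BC12, rose in late Ota cells, where 8 of the 13 rose, and the first pair share 1 copy.

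Other genes high in both Ota groups included MGC16275, an uncharacterised transcript, and DHRS2, a short-chain dehydrogenase. MGC16275 read 4.79, 3.52 and 5.40 in early control cells and 10.64, 10.51 and 10.54 in late Ota cells, a rise of 5.99 (SE 0.37) that is limited by the floor, with Ota cells at 24 h averaging 9.05 and late controls 6.45. DHRS2 was on the floor in both control groups, with 2.48, 2.48 and 2.97 in early control cells and a late control mean of 2.81. It read 7.22, 6.54 and 7.51 in late Ota cells (log2 difference 4.44, SE 0.35, its size limited by the floor) and averaged 5.68 at 24 h of Ota. The helicase gene DDX5 rose by 3.02 (SE 0.14) on the probe set used, from 7.34 to 10.36, with 10.52 in Ota cells at 24 h. LURAP1L rose by 3.19 (SE 0.28) and ADAMTS5, a matrix protease, by 3.12 (SE 0.42). Both were high in late controls too, at 8.66 and 7.38. At 24 h of Ota, LURAP1L averaged 5.90 and ADAMTS5 5.05, with early control means of 4.79 and 4.76.

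The largest log2 fall among the genes tested was that of TXNIP, which binds thioredoxin and curbs glucose uptake. It read 10.48, 10.15 and 10.44 in early control cells, 5.03, 4.13 and 4.21 in late Ota cells and 4.55, 4.21 and 4.47 in late controls. Both late groups overlapped close to the floor and lay far below both 24 h groups, Ota cells at 24 h being at 10.56. The difference was -5.90 (SE 0.22, adjusted p = 5.9e-08), its size limited by the floor, and its other probe sets gave -6.35 and -5.65. GAL, the neuropeptide galanin, fell by 4.22 (SE 0.46) to the floor in late Ota cells, or by 2.12 as the mean of its probe sets, and late controls stood at -4.40.

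Several genes were low in both Ota groups. IFFO1, an intermediate filament family gene, read 6.55, 5.47 and 6.79 in early control cells and 2.34, 2.58 and 2.33 in late Ota cells. It averaged 2.39 in Ota cells at 24 h and 6.70 in late controls. The fall of 3.85 on the log2 scale (SE 0.29) is limited by the floor, and its other probe set gave -1.92. GYS1, muscle glycogen synthase, fell by 3.76 (SE 0.23), from 7.61 to 3.85, also limited by the floor, with 4.44 in Ota cells at 24 h and 6.32 in late controls. NEXN, an actin-binding protein, fell by 2.58 (SE 0.22), FUOM, fucose mutarotase, by 2.21 and the pseudogene OR7E37P by 2.09. In late controls these 3 stood at -0.58, -0.42 and -0.03.

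Late controls are given beside the other large falls. MYL9, a myosin light chain, fell by 2.73 (SE 0.16) against 1.69 in controls, MRPL16, of the mitochondrial ribosome, by 2.28 against 1.34, and S100A3 by 2.07 against 2.17. With the mean of its probe sets MYL9 was at -1.37. IFI35, an interferon-induced gene, fell by 2.20 (SE 0.31), with 2.52 in Ota cells at 24 h. In late controls it was at -0.58 (adjusted p = 0.14) and was not called.

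**Figure D4:**
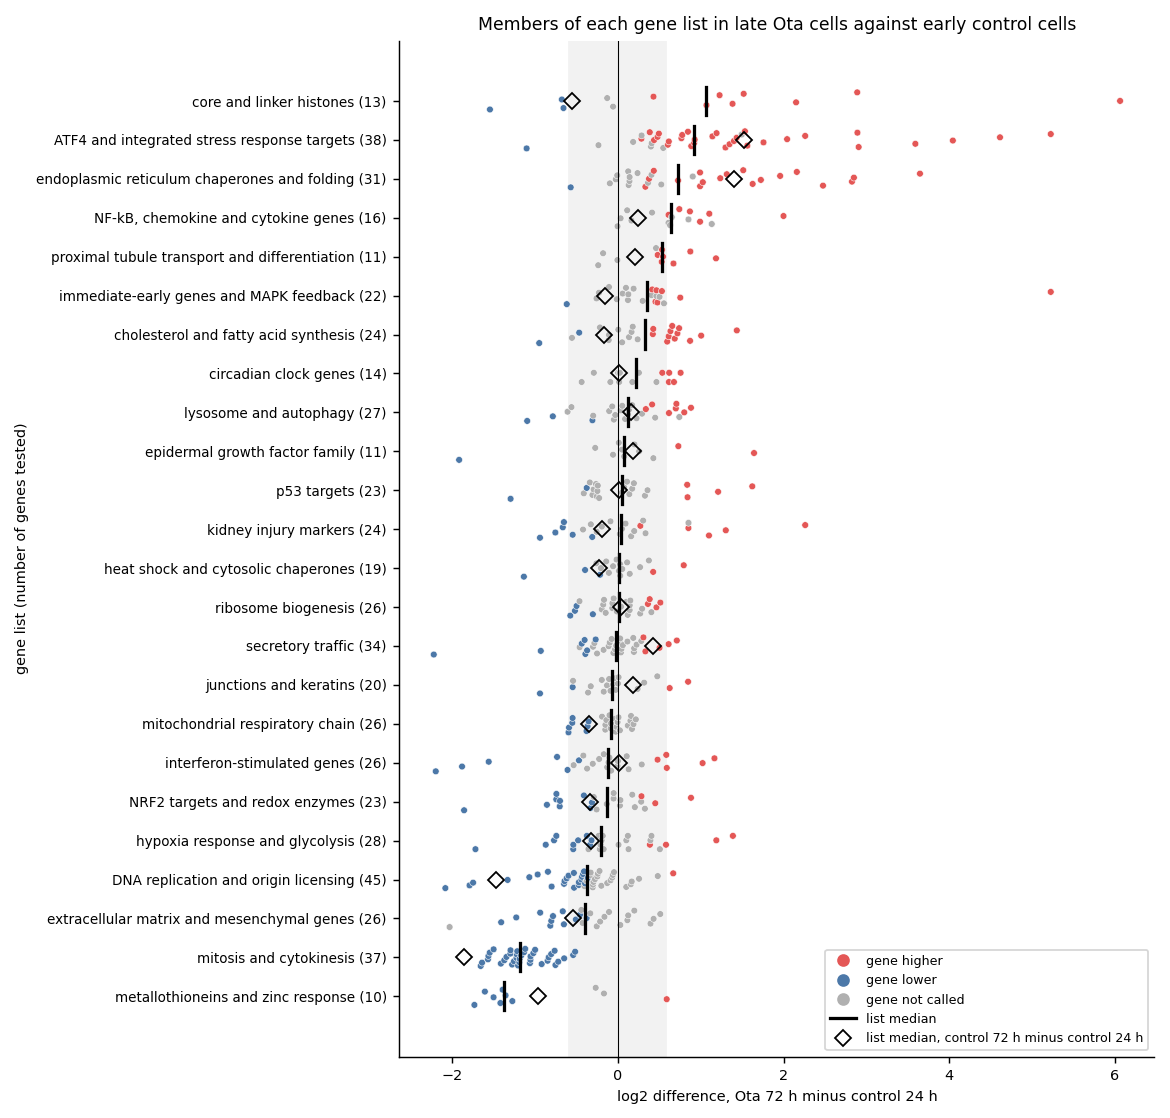
Log2 difference between Ota 72 h and control 24 h (x axis) for the tested members of 24 gene lists (y axis, number tested in brackets), red for higher, blue for lower and grey for not called, with a bar at the list median and a diamond at the median for untreated cells at 72 h. The grey band is 1.5-fold; histones, ATF4 targets and ER chaperones have the highest medians, and mitosis and metallothioneins lie lowest.

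Metallothioneins are small proteins that bind zinc and copper. Of 10 tested of 11 listed, 7 fell and 1 rose (against 18.4% and 18.6% of all genes), with a median of -1.37. MT2A read 14.41, 14.51 and 14.37 in early control cells and 13.18, 13.00 and 13.04 in late Ota cells. The groups were well apart, with a difference of -1.36 (SE 0.08, adjusted p = 1.7e-06) and late controls at 13.42. MT1X fell by 1.61 (SE 0.12) and MT1G by 1.73 (SE 0.10), the latter by 0.87 as the mean of its probe sets. The zinc exporter SLC30A1 was the 1 that rose (0.59, SE 0.07), a call lost where its probe sets were averaged (0.04). In late controls 8 of the 10 fell and 1 rose (median -0.96). Metallothionein genes are nearly identical, and without probe sets prone to match other transcripts 4 members were left, of which 1 fell (median -0.13).

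Of 24 kidney injury markers tested of 26 listed, 5 rose, 6 fell and 7 stood at the early control level, with a median of 0.04. Over all genes 18.6% rose, 18.4% fell and 48.8% stood at that level. The list's shares that rose and fell are near these, and its share at that level is lower (29.2%). HAVCR1, which encodes the tubular injury marker KIM-1, read 10.67, 10.63 and 10.72 in early control cells, 11.48, 11.52 and 11.59 in late Ota cells and 10.17, 9.67 and 9.69 in late controls. Late Ota arrays were the highest of the 4 groups, above Ota cells at 24 h (mean 10.78). The rise was 0.85 (SE 0.19, adjusted p = 0.0049) against early control cells and 1.68 against late controls. LCN2, the injury marker NGAL, read 4.10, 4.10 and 5.07 against 4.01, 5.32 and 4.85, overlapping groups near the floor, with a difference of 0.30 whose 95% interval ran from -0.70 to 1.31.

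PROM1, a marker of regenerating tubule cells, rose by 2.26 (SE 0.37), from 4.57, 4.57 and 5.94 to 6.97, 7.25 and 7.63. Late controls averaged 4.43. CLU, clusterin, rose by 1.10 (SE 0.16) and GPNMB by 1.30 (SE 0.09), or 0.46 as the mean of its probe sets, and both rose in late controls too (0.65 and 1.18). SPP1, osteopontin, was at the early control level (0.16, SE 0.07), but gave 0.36 as the mean of its probe sets and was called higher in 2 of the alternative fits. VIM, vimentin, fell by 0.65, or by 0.34 as the mean of its probe sets, and ANXA2 by 0.76. MMP7, named after its values were seen, fell by 0.67 where late controls fell by 2.40.

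Of the 11 proximal tubule genes tested, 7 rose, 0 fell and 3 were at the early control level, with a median of 0.53. The shares over all genes were 18.6%, 18.4% and 48.8%. With no filter, where most of the list lies on the floor, the median was -0.00. SLC3A1, a subunit of the cystine transporter of the brush border, read 8.80, 9.11 and 9.44 in early control cells and 10.40, 10.28 and 10.22 in late Ota cells, a rise of 1.18 (SE 0.21, adjusted p = 0.0011), or 0.40 as the mean of its probe sets. The peptidase DPP4 rose by 0.67 (SE 0.14) and the scaffold PDZK1 by 0.54 (SE 0.13), with late controls at 0.33 and 0.08. PAX8, a kidney lineage factor, stood at the early control level (-0.24) but was called lower without the third late Ota array (-0.36), and MIOX, the inositol oxygenase of proximal tubule, was at that level (-0.18), though it was at 7.97 in Ota cells at 24 h against 9.00 in early control cells.

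Of 24 genes of cholesterol and fatty acid synthesis tested of 31 listed, 12 rose and 2 fell (against 18.6% and 18.4% of all genes). The early control level held for 7 (29.2%, against 48.8% of all genes). The median was 0.33, where late controls had 2 higher, 9 lower and a median of -0.17. HMGCS1, at the head of the pathway, read 10.89, 10.38 and 11.05 in early control cells and 11.60, 11.08 and 11.70 in late Ota cells. Every late Ota array was above every early control array, by little at the nearest pair (0.69, SE 0.19, adjusted p = 0.013). STARD4, a cholesterol carrier, rose by 1.44 (SE 0.16), MSMO1 by 0.87 and MVD by 1.01. Of the fatty acid enzymes in the list, ACLY was at the early control level (0.13, 95% interval -0.13 to 0.40) and FASN passed neither test (-0.22), with late controls at -0.63 and -1.79. The count of higher genes fell to 7 without the first late Ota array and to 6 without the third, and in HMGCS1 and FDPS the call was lost in both fits.

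The list of NF-kB, chemokine and cytokine genes had 6 of 16 tested (of 25 listed) higher, 0 lower and a median of 0.64. Among all genes 18.6% were higher and 18.4% lower. The early control level held for 4 of the 16 (25%, against 48.8% of all genes), among them NFKB1 (0.11) and CSF1 (0.16). TNFAIP3, the feedback inhibitor A20, read 6.21, 6.21 and 6.68 in early control cells and 7.97, 8.14 and 8.99 in late Ota cells, a rise of 2.00 (SE 0.27, adjusted p = 0.00021) against 1.21 in late controls. ICAM1, an adhesion receptor, rose by 0.99, NFKBIA by 0.74 (0.37 as the mean of its probe sets) and SOD2, the mitochondrial superoxide dismutase, by 1.10. In late controls these 3 stood at 0.09, -0.20 and -0.14. In the immediate-early list 7 of 22 rose and 1 fell (median 0.35) against the same background of 18.6% and 18.4%, and 3 to 7 rose over the fits without 1 array. JUN rose by 0.75, or 0.38 with its call lost without probe sets prone to match other transcripts. JUND rose by 0.48, or 0.28 as the mean of its probe sets, and JUNB and DUSP1 were at the early control level.

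Among p53 targets 4 of 23 rose, 2 fell and 8 were at the early control level, with a median of 0.05. Over all genes 18.6% rose, 18.4% fell and 48.8% were at that level, so the list's shares (34.8% at it) are near or below the background. CDKN1A, the cell cycle inhibitor p21, read 8.81, 8.42 and 8.59 in early control cells and 9.66, 9.75 and 10.04 in late Ota cells, with a rise of 1.21 (SE 0.12, adjusted p = 3.6e-05) against 0.44 in late controls. GADD45A, a growth arrest gene, rose by 1.62, with late controls at 1.63. TP53I3, a quinone oxidoreductase, fell by 1.30 (SE 0.16) and was lower still in Ota cells at 24 h, at 5.57 against 8.05.

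NRF2 targets, which defend against oxidants, had 3 of 23 higher, 9 lower and 13 at the early control level (56.5%), with a median of -0.13. For all genes these shares were 18.6%, 18.4% and 48.8%. NQO1, the quinone reductase, read 10.39, 10.24 and 10.21 in early control cells and 8.48, 8.39 and 8.40 in late Ota cells, a fall of 1.86 (SE 0.15) against 0.66 in late controls. HMOX1, heme oxygenase, read 7.27, 7.09 and 7.09 against 6.93, 7.20 and 7.16 and was at the early control level (-0.05, 95% interval -0.33 to 0.22). The thioredoxin gene TXN (0.02) and the ferritin chain FTL (0.17) were at it too, though FTL was called higher in 2 of the alternative fits. SQSTM1, the autophagy receptor p62, rose by 0.88 (SE 0.14), or 0.38 as the mean of its probe sets and 0.32 with its call lost without probe sets prone to match other transcripts.

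Of 26 extracellular matrix genes tested of 36 listed, 11 fell and 0 rose (against 18.4% and 18.6% of all genes), with a median of -0.40. The early control level held for 8 (30.8%, against 48.8% of all genes). In late controls 15 were lower and 1 higher (median -0.54). TGFBI, a secreted matrix protein, fell by 1.41 (SE 0.17) and COL6A1 by 1.23 (SE 0.16), or 0.33 as the mean of its probe sets. Fibroblast markers moved beside this list: their mean over 10 genes was 5.23 to 5.29 on early control arrays, 5.01 to 5.14 on late Ota arrays and 4.78 to 4.88 on late control arrays. DCN and LUM were among the 4 fibroblast markers that passed the filter, with early control means of 11.65 and 9.31 in this epithelial line. In late Ota cells they were at -0.65 and -0.13 and passed neither test, with late controls at -1.74 and -1.81. The 1 fibroblast marker called lower was neither of them. DCN was called lower without the third control array (-0.91) and turned to 0.68 without probe sets prone to match other transcripts. The part of these genes in the matrix result was not tested.

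In the hypoxia and glycolysis list, 10 of 28 fell, 4 rose and 13 were at the early control level (46.4%, median -0.20). The matching shares of all genes were 18.4%, 18.6% and 48.8%. The glycolytic enzymes PKM, GPI and HK1 fell by 0.87, 0.77 and 0.74, with late controls down by 1.30, 1.08 and 1.23 (log2 differences -1.30, -1.08 and -1.23). PFKFB3, which sets the pace of glycolysis, read 8.97, 8.80 and 9.41 in early control cells and 10.21, 10.02 and 10.52 in late Ota cells, a rise of 1.19 (SE 0.21) where late controls stood at 0.01. VEGFA rose by 1.39 against 1.97 in controls. ENO1 was at the early control level (-0.18), though called lower in 2 of the alternative fits.

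Many genes of 3 housekeeping lists stood at the early control level: this held for 22 of 26 respiratory chain genes (84.6%, 7 lower, median -0.09), 14 of 19 heat shock genes (73.7%, median 0.01) and 18 of 26 ribosome biogenesis genes (69.2%, median 0.01), against 48.8% of all genes. Lower genes made up 18.4% of all genes. The chaperonin HSPD1 was within 0.05 of early control cells (95% interval -0.11 to 0.22), but its probe sets not prone to match other transcripts gave 1.94. In the heat shock list HSPA4 fell by 1.14 (SE 0.08), and the same choice gave 1.28. Fibrillarin, FBL (-0.01), and the subunit NDUFV2 (-0.02) were at the early control level. Of the respiratory chain genes, 15 of 26 were lower in late controls (median -0.35).

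Of 20 junction and keratin genes, 11 were at the early control level (55%), 2 rose and 2 fell (median -0.07). That compares with 48.8%, 18.6% and 18.4% of all genes. E-cadherin, CDH1, read 8.43, 7.86 and 7.97 in early control cells and 8.35, 7.71 and 8.21 in late Ota cells, overlapping groups with a difference of 0.01 (95% interval -0.50 to 0.51), while late controls averaged 9.20. Occludin, OCLN, rose by 0.85 (SE 0.13) against 1.04 in controls. The keratin KRT18 fell by 0.55 and KRT8 by 0.94, the latter call being lost in 6 of the alternative fits.

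Of the remaining lists, lysosome and autophagy genes had 7 of 27 higher, 3 lower and 14 at the early control level (median 0.12). ATG12 rose by 0.70. For this and the lists that follow, the shares over all genes were 18.6% higher, 18.4% lower and 48.8% at that level. Interferon-stimulated genes had 5 of 26 higher, 6 lower and 7 at that level (median -0.12), with ISG15 down by 1.56 (SE 0.16) and IFIT1 by 1.88 (SE 0.18). ISG20 rose by 1.17 and IRF1 by 1.02, calls lost in 4 and 1 of the alternative fits. In the epidermal growth factor family 2 of 11 rose, 1 fell and 5 were at that level (median 0.08). The ligand EREG rose by 1.64 (SE 0.28), or 0.82 as the mean of its probe sets, against 2.26 in controls. The ligand NRG1 fell by 1.92 (SE 0.40), or 0.51 as the mean of its probe sets, from 9.41 to 7.49 with 6.38 in Ota cells at 24 h. The receptor EGFR was at the early control level (-0.06, SE 0.12). Clock genes had 5 of 14 higher, 0 lower and 6 at that level (median 0.21), of which BHLHE41 rose by 0.54 and NR1D2 by 0.68.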

How the data were processed

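Each deposited value is a log2 expression level of 1 probe set on 1 array. The submitters' processing notes name GCRMA, which the authors ran before deposit; a version is not given in the sources used here. GCRMA models background from probe sequence and normalizes by quantiles, so a shift of all RNA is hard to see and low values sit on a floor. The table held 54675 probe sets, of which 62 were controls. Names came from the platform annotation, updated by gene identifier with RefSeq (GRCh38.p14): 41091 probe sets had exactly 1 symbol, 1801 several and 11721 none, and no gene was named from the last kinds. Where a gene had several probe sets, the one highest on average across the 12 arrays stood for it.

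Here, 4 group means were fitted over 12 arrays in limma 3.58.1 under R 4.3.3 (lmFit, eBayes, Benjamini-Hochberg over 10699 genes; 8 residual and 3.31 prior degrees of freedom). Likeness was tested with limma's moderated errors and a margin of 1.5-fold. Errors of differences are the fit's standard errors. The fit was tested on simulated data. Figures were drawn with matplotlib 3.10.9.

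The members and the 29 gene lists were chosen with earlier results of these data known. Named genes were the largest called rises and falls, genes at the early control level that moved most in controls, from each list up to 4 called and 2 like members ranked by p, and 8 set genes. Others (among them ALDH1L2, ASNS, DDIT4, WARS1, HYOU1, HSP90B1, PDIA4, SDF2L1, ERO1B, CRELD2, XBP1, P4HB, DTL, E2F1, RRM2, MCM2, MCM10, CCNE2, POLA2, RFC5, MAD2L1, NUSAP1, H2BC4, H2BC6, H1-2, H2AX, SSR2, COPA, SEC61A1, CDH1, MT1X, SLC30A1, PFKFB3, VEGFA, GADD45A, HMGCS1, MVD, FDPS, ACLY, FASN, DCN and LUM) were named after their values were seen. Promoters came from the RefSeq table. No scan dates were used here, so batches could not be examined.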

Additional observations from a re-analysis of the deposited data

Results flagged for a closer look

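Probe sets with no single gene symbol (no symbol, or several) lie outside every gene described above. Of 3017 that passed the filter, 1046 differed between late Ota and early control cells (34.7%, 583 higher and 463 lower). This share is near that of the named genes (37%), and the probe sets are given here for holding signal outside the comparisons, not for a larger share of changes.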

How the results depend on the processing

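Over the alternatives, 3095 to 4465 genes differed between late Ota and early control cells. With the replicate block it was 4465 (2242 higher, 2223 lower). Deviations of same-numbered late Ota and early control arrays correlated at 0.0996, 0.174 and 0.223, and not every pair passed 0.1, so the numbers were not taken to pair the samples. As a hint from the data, all 12 arrays correlated best with their own number in the other groups, and Ota against control at 24 h gave 0.439, 0.323 and 0.455. With the replicate block HMGCS1 stayed called (adjusted p = 0.0015), and DCN became so (0.0014). In other settings, fits without 1 array gave 3172 to 3987. Repeated quantile normalization put 43.9% of calls on the higher side, against 1989 of 3955 in the values reported, and leaving out probe sets prone to match other transcripts put 59.1% there. The number of genes at the early control level depends on the margin: 8861 at 2-fold, and at the narrower margin tried 0 in limma after adjustment (2114 at an unadjusted p under 0.05). It was 14168 of 19775 genes with no filter and 3305 of 7990 without probe sets prone to match other transcripts, where fewer or more genes were tested. Averaging a gene's probe sets turned the direction for NUCB2 (1.17), DERL1 (0.41), COX7B (0.91), WDR12 (0.28), SAR1B (0.12), RFC5 (-0.23) and SAR1A (-0.97). Leaving out probe sets prone to match other transcripts turned MACROH2A1 (1.46), DERL1 (0.66), HSPA4 (1.28), ATG7 (0.22), SAR1B (1.26) and DCN (0.68), and the medians of fibroblast markers (0.21) and of the hypoxia response and glycolysis, median 0.0075. With no filter, proximal tubule transport and differentiation, median, was -0.0044. For distal nephron and collecting duct markers, 2 genes, the median ran from -0.11 to 0.15 over fits without 1 array. The cause of these turns was not tested. The other comparisons stayed within 1.5 times of their counts under every alternative run. The number of arrays limits the precision, with a median SE of 0.13.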
